A study of Mus musculus with 4 samples.

Results

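The polyamine metabolism genes are 10 genes chosen by name from the 50600 genes of the deposited tables, and all 10 were found. They are Odc1, Amd1, Srm and Sms, which encode the enzymes of polyamine synthesis, Sat1, Smox and Paox, which encode the enzymes of polyamine breakdown, and Oaz1, Oaz2 and Azin1, which encode proteins that set the lifetime of ornithine decarboxylase. Their RNA was measured in 4 libraries from primary regulatory T cells, a CD4+ lineage that holds immune responses in check, of mouse strain C57BL/6NJ. The 4 libraries form 1 group, carry the biological replicate numbers 1 to 4 and share 1 donor label, with sex not recorded and age unknown. A protocol for CD4+ T cell differentiation is linked, output names in the file headers contain activated and 24h, and the assay is called total RNA-seq although the linked library protocol is for polyA+ RNA. There is no treated or control arm, and no allele or transgene is named. No label or header says that the libraries came from separate animals or cultures, although Xist and Y-linked Ddx3y, given below, split them. The p-values here thus measure only the spread between these libraries, which includes that split.

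Polyamines (putrescine, spermidine and spermine) are small positively charged molecules that bind RNA and DNA and are needed for cell growth. Ornithine decarboxylase makes putrescine, and aminopropyl groups taken from decarboxylated S-adenosylmethionine extend it to spermidine and then spermine. Antizymes, whose own translation is raised by polyamines, bind ornithine decarboxylase and deliver it to the proteasome, and antizyme inhibitor releases it. In T cells the pathway is known to be induced on activation, with MYC as a known regulator of several of its genes, and spermidine is used to make hypusine in the translation factor eIF5A.

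The libraries held 38590127, 44357436, 48312918 and 93035969 counted fragments in replicates 1 to 4. Of 6 regulatory T cell markers, all 6 were at 1 TPM or more (fragments scaled for gene length and for the library total), with Foxp3 at 101, 93.0, 125 and 115 TPM. Of 13 markers of other blood cells, 6 were at 0 in all 4 libraries (Lyz2, Ncr1, S100a8, S100a9, Hbb-bs and Hba-a1), 3 had a mean of 1 TPM or more, and the sum of the list was 2.90 to 5.80 TPM against 2911 to 3431 TPM for the regulatory T cell list. In replicate 1 the feature Gm42418 had 35490.5 TPM, against 3197, 1324 and 1606 TPM in replicates 2 to 4, and protein-coding genes took 88.2% of TPM, against 95.6 to 96.6%. Xist, the RNA of the inactive X chromosome, had 100.4 and 88.7 TPM in replicates 1 and 2, against 0.716 and 0.603 TPM in replicates 3 and 4. Y-linked Ddx3y had the opposite order, 0.159 and 0.101 TPM against 46.1 and 40.6 TPM. That split goes against the shared donor label if it stands for 1 animal, and it is given here because 2 of the 10 genes lie on the X chromosome.

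Antizyme messages hold the sequence feature for which this pathway is best known, and it is printed here because the counts of Oaz1 and Oaz2 include RNA whether or not it is read through. An in-frame stop codon, TGA, interrupts the coding sequence, and full-length antizyme is made only when the ribosome shifts forward past it. The runs below are 60 bases of the GENCODE mouse release 21 transcripts on GRCm38, plus strand, 5′ to 3′, with the TCCTGA that holds the stop codon in capitals, for Oaz1 at chr10:80828265-80828324 and for Oaz2 at chr9:65686242-65686301.
Oaz1: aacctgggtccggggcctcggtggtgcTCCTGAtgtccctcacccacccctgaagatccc
Oaz2: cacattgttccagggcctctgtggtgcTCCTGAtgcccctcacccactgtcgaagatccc
The stop is codon 69 of Oaz1 and codon 33 of Oaz2, and the annotated coding models skip 1 base, at position 80828295 on chromosome 10 and position 65686272 on chromosome 9. The sites matched at 49 of 60 bases (81.7%), with 15 identical bases in a row around the capitals. Fragments per gene do not say in which frame a message was read, so frameshifting was not measured.

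All 10 genes were detected in every library, with mean levels from 8.80 to 1215 TPM. With the deposited gene lengths, transcripts of the synthesis enzymes Srm and Odc1 stood far above the other 8 genes. Together they made up 75.5 to 76.3% of the members' summed TPM in the 4 libraries. Under the other treatments of length given below, Oaz1 came nearer to them, up to 994 TPM against 1056 TPM for Srm. The median of the 10 mean levels was 81.9 TPM, against 23.2 TPM over the 12396 genes that passed the filter on low counts and 27.6 TPM over the protein-coding genes among them, and 9 of 10 were at 10 TPM or more. The members took 0.221 to 0.240% of all counted fragments. In bulk RNA, fewer cells with a message and less of it per cell cannot be told apart.

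Srm encodes spermidine synthase, which converts putrescine to spermidine (ENSMUSG00000006442.10, mm10 chr4:148591503-148594993, plus strand). It had 1169, 1203, 1178 and 1309 TPM in replicates 1 to 4, with a mean of 1215 ± 64.1 TPM (SD, n = 4). On TPM it was highest in replicate 4, while the other 3 libraries lay close together. That closeness was not seen on TMM-scaled CPM, where Srm had 596, 569, 544 and 623 in replicates 1 to 4. This scale gives fragments relative to the library total, with edgeR's correction for library composition. By mean TPM Srm ranked 73 among 10383 protein-coding genes with a mean of 1 TPM or more. Odc1 encodes ornithine decarboxylase, the regulated entry enzyme of the pathway (ENSMUSG00000011179.7, chr12:17544873-17551502, plus strand). It had 1008, 1240.0, 1201 and 1133 TPM, a mean of 1145 ± 102 TPM (SD, n = 4) and rank 80. Odc1 was lowest in replicate 1, and its range overlapped that of Srm: Srm was the higher gene in 2 of 4 libraries (log2 Srm minus Odc1 0.09 ± 0.14, exact two-sided sign-flip test, p = 0.5, n = 4).

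Amd1 encodes S-adenosylmethionine decarboxylase, which makes the aminopropyl donor (ENSMUSG00000075232.5, chr10:40287458-40302186, minus strand). It had 87.7, 109, 105 and 98.7 TPM (100.2 ± 9.42, SD, n = 4), lowest in replicate 1 and highest in replicate 2. Sms encodes spermine synthase, which adds the last aminopropyl group (ENSMUSG00000071708.11, chrX:157443855-157492287, minus strand). It had 39.5, 49.7, 46.1 and 43.2 TPM (44.6 ± 4.32, SD, n = 4). The libraries took the same order for Sms as for Amd1, with replicate 1 lowest and replicate 2 highest. Srm exceeded Sms by 29.6, 24.2, 25.6 and 30.3 times in replicates 1 to 4 (27.4 ± 2.99, SD, n = 4). The ratio was 20.3 with the longest coding transcript as length, 14.6 when divided also by the share of sequence not found in other genes, and 7.29 with no division by length. Srm was the higher gene in 4 of 4 libraries under each of these.

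Sat1 encodes spermidine/spermine N1-acetyltransferase, which marks polyamines for oxidation or export (ENSMUSG00000025283.15, chrX:155213132-155216449, minus strand). It had 55.0, 71.0, 66.2 and 62.5 TPM (63.7 ± 6.78, SD, n = 4), and per length was the highest of the breakdown genes in every library. Smox encodes spermine oxidase, which returns spermine to spermidine (ENSMUSG00000027333.18, chr2:131491496-131525922, plus strand). It had 43.2, 40.8, 46.2 and 46.8 TPM (44.2 ± 2.76, SD, n = 4), lowest in replicate 2, the library in which Sat1 was highest. Paox encodes the peroxisomal oxidase of acetylated polyamines (ENSMUSG00000025464.15, chr7:140115799-140137224, plus strand). It had 8.58, 9.30, 8.54 and 8.78 TPM (8.80 ± 0.350, SD, n = 4), the lowest mean of the 10 genes and a narrow range.

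Sat1 over Smox was 1.27, 1.74, 1.43 and 1.34, and Smox over Paox was 5.03, 4.39, 5.41 and 5.33 (a mean of 8.10 with transcript length). Per length the 3 breakdown genes kept their order in each library, whereas without division by length Sat1 over Smox was 1.03 ± 0.147 (SD, n = 4) and Sat1 was the higher in 2 of 4 libraries. With the deposited gene lengths, summed TPM was 2504.8 ± 137 for the 4 synthesis genes and 117 ± 6.82 for the 3 breakdown genes (SD, n = 4). Their ratio was 20.9 to 21.9 across the libraries and was carried by Srm and Odc1. It was not computed with other lengths. With the longest coding transcript as length, Srm (1056 TPM), Odc1 (960.3 TPM), Amd1 and Paox were lower, and Sat1 (110 TPM), Smox and Sms were higher.

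Sat1 and Sms are the X-linked members. Neither followed Xist: replicates 1 and 2, which had Xist, held both the lowest and the highest value of Sat1 and of Sms, with replicates 3 and 4 between them.

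Oaz1 encodes antizyme 1 (ENSMUSG00000035242.15, chr10:80826656-80829290, plus strand). It had 330.5, 332, 326 and 344 TPM (333 ± 7.97, SD, n = 4), a coefficient of variation of 2.39%, the smallest of the 10 genes on this scale. Oaz2 encodes antizyme 2, a more weakly expressed relative (ENSMUSG00000040652.16, chr9:65668001-65690300, plus strand). It had 7.97, 11.7, 11.2 and 9.71 TPM (10.1 ± 1.68, SD, n = 4) from 288, 463, 472 and 800 fragments, and was lowest in replicate 1. Azin1 encodes antizyme inhibitor 1, a catalytically inactive relative of ornithine decarboxylase that binds antizyme in its place (ENSMUSG00000037458.14, chr15:38487430-38519266, minus strand). It had 134, 156, 165 and 145 TPM (149.9 ± 13.4, SD, n = 4), again lowest in replicate 1.

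Among the regulators, Oaz1 exceeded Oaz2 by 41.5, 28.5, 28.9 and 35.5 times (33.6 ± 6.16, SD, n = 4), and by 49.5 times with transcript length and 82.1 times when divided also by the unshared share. Azin1 stood at 0.405, 0.470, 0.506 and 0.422 of Oaz1 (0.451 ± 0.0461, SD, n = 4), below it in 4 of 4 libraries, and at 0.241 and 0.149 of it under those same alternatives. Without division by gene length the counts of both were alike, with Azin1 over Oaz1 at 1.10 ± 0.112 (SD, n = 4) and higher in 3 of 4 libraries, since the Azin1 exons cover 6231 bp and those of Oaz1 2558 bp. Odc1 exceeded its inhibitor's message Oaz1 by 3.05, 3.74, 3.69 and 3.29 times (3.44 ± 0.330, SD, n = 4) and its protector's message Azin1 by 7.53, 7.95, 7.29 and 7.80 times (7.64 ± 0.291, SD, n = 4), the last falling to 3.12 with no division by length. These are ratios of RNA, not of protein.

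Per length, each of the 8 ratios examined had the same direction in 4 of 4 libraries, which gave p = 0.125 in an exact two-sided sign-flip test for each (0.125 after Benjamini-Hochberg adjustment over the 8). That is the smallest value 4 libraries allow, 2 of 16 sign patterns, so no ratio could pass 0.05. By mean TPM the order was Srm, Odc1, Oaz1, Azin1, Amd1, Sat1, Sms, Smox, Oaz2 and Paox. Of the 9 neighbour pairs, 6 had the upper gene higher in every library (exact p = 0.125, adjusted 0.1875 over the 9). Srm and Odc1, Sms and Smox (upper gene higher in 1 of 4, exact p = 1) and Oaz2 and Paox (3 of 4, exact p = 0.25) overlapped and did not differ beyond their spread. The order was set from these same means, so the tests describe the spread around it.

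**Figure D1:**
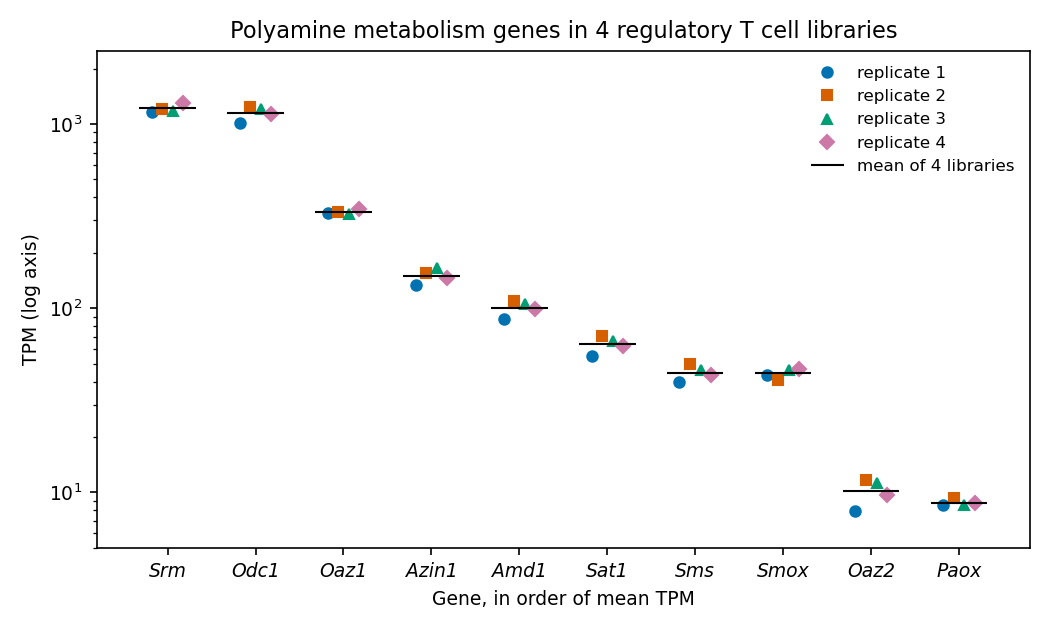
TPM on a log axis for each of the 10 genes, in order of mean TPM, with 1 symbol per library (replicates 1 to 4) and a line at the mean. Srm and Odc1 lie together with means of 1215 and 1145 TPM, Oaz1 follows at 333 TPM, and Oaz2 and Paox lie together at 10.1 and 8.80 TPM.

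The levels depend on which length each count is divided by. The deposited tables give the union of all annotated exons, which for Oaz1 is 2558 bp against 1071 bp for its longest coding transcript, and for Sat1 2774 bp against 1162 bp, a factor of 2.39 in both. With the longest coding transcript of every gene as its length, an alternative added after seeing the data, Oaz1 had 579 ± 13.6 TPM and Sat1 110 ± 10.8 TPM, while Srm had 1056 and Odc1 960.3 TPM (SD, n = 4). Odc1 over Oaz1 was then 1.66 ± 0.159, and Sat1 passed Amd1, which had 80.5 TPM. Srm and Odc1 stayed the highest pair under that length.

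Near-identical copies elsewhere in the genome may also bear on these genes, since no option to count fragments that map to several places is in the authors' command lines. Of the 100-base windows along the longest coding transcript, 76.4% for Amd1 occur also in transcripts of other genes, mostly of the retrocopy Amd2, 41.8% for Oaz1 in Oaz1-ps, 27.7% for Sms in Sms-ps, 25.4% for Paox in Gm19680 and 19.6% for Odc1 in several processed pseudogenes. The share was 5.45% for Azin1, 3.33% for Oaz2, 0.376% for Sat1 and 0 for Srm and Smox. For Azin1 all of it was with Gm49077, which overlaps Azin1 on the opposite strand and is not among the counted genes. That share is thus not one of a copy elsewhere. Sms-ps itself was given 313, 339, 481 and 812 fragments, 8.55 to 12.4% of the Sms count, although it spans 1101 bp and shares 1002 windows with Sms. Oaz1-ps had 1.55 to 2.27% of the Oaz1 count and Amd2 0.441 to 0.892% of the Amd1 count. Paox also overlaps Echs1 on the opposite strand, which counting with a strand setting keeps apart.

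If no fragment from a shared window was counted, dividing each member's transcript-length level by its unshared share, also an alternative added after seeing the data, gives Amd1 342 ± 29.1, Oaz1 994 ± 23.3 and Sms 72.5 ± 6.45 TPM (SD, n = 4). Srm was not altered by that step. Azin1 was divided as well, although its share was with Gm49077 and not with a copy elsewhere. Its 147 TPM under that step, and the 0.149 of Oaz1 given above, include that division. Odc1 over Amd1, which was 11.4 with the deposited lengths, becomes 3.50 ± 0.0218, and Odc1 over Oaz1 becomes 1.20 ± 0.115 (SD, n = 4). The direction of both held in 4 of 4 libraries. How many fragments of Amd1, Oaz1 and Sms were left out for this reason depends on the aligner and the read lengths, which are not given in the sources used here. Whether the condition held was not tested, and Sms-ps, which shares 1002 windows with Sms, did receive fragments.

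**Figure D2:**
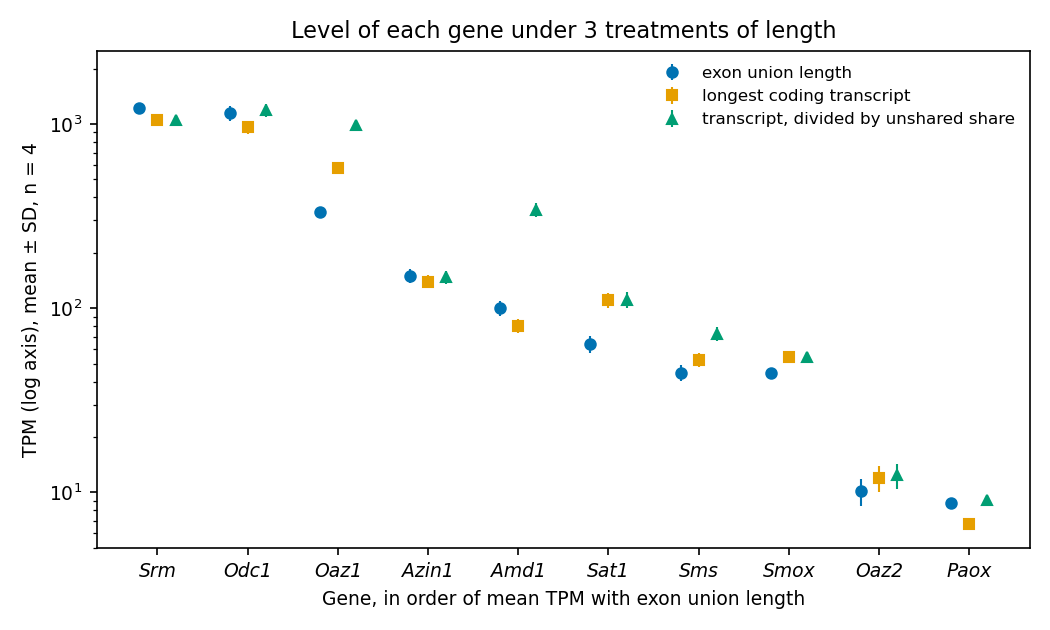
Mean TPM ± SD over 4 libraries on a log axis for each gene, with the deposited exon union length (circles), the longest coding transcript (squares), and the transcript level divided by the share of windows not found in other genes (triangles). Oaz1 moves from 333 to 579 and 994 TPM and Amd1 from 100.2 to 80.5 and 342 TPM, while Azin1 stays between 139 and 149.9 TPM.

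None of the 10 genes was called more variable between the libraries than the trend of all genes. In edgeR's quasi-likelihood test of each gene's dispersion against the trend, 58 of 12396 tested genes passed an adjusted p of 0.05, which is 0.468% of them, and 0 of 10 members did. The members' adjusted p was 0.991 to 0.997, their smallest unadjusted p was 0.297 (edgeR), 0 of 10 had an unadjusted p under 0.05 against 5.33% of all tested genes, and DESeq2 marked none of them as a dispersion outlier. All 10 had passed the filter on low counts. At those shares over all tested genes, counts of 0 among 10 do not set the members apart. Their median coefficient of variation, after TMM scaling (edgeR's correction for library composition), was 6.01%, against 7.94% over all tested genes and 7.30% over protein-coding ones. These sets were not matched for level: the members' median was 81.9 TPM, against 23.2 and 27.6 TPM.

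Within that spread, replicate 1 was most often the lowest library. On TMM-scaled CPM (fragments relative to the library total), 6 of 10 members were lowest in replicate 1 (Odc1, Azin1, Amd1, Sat1, Sms and Oaz2), against 28.4% of all tested genes. Their log2 deviations from the gene mean in that library were -0.09 for Odc1, -0.07 for Azin1, -0.10 for Amd1, -0.12 for Sat1, -0.08 for Sms and -0.25 for Oaz2. Srm, Oaz1, Smox and Paox lay above their means there, by 0.03, 0.08, 0.05 and 0.05. On TPM 7 members were lowest in replicate 1, and 4 on TPM over protein-coding genes alone, so the count depends on the scaling. The share over all tested genes was not computed on either of those scales. Protein-coding genes as a whole took 88.2% of TPM in replicate 1, against 95.6 to 96.6% in the others.

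Libraries also differed by base composition. With tested protein-coding genes split into 5 equal bins by transcript GC, the median log2 deviation of replicate 1 was -0.07 in the lowest bin and 0.08 in the highest, and that of replicate 2 was 0.04 in the lowest and -0.09 in the highest. Azin1, Amd1 and Sms, at 39.3, 41.4 and 43.5% GC, are in the lowest bin, and Oaz1 and Srm, at 56.9 and 59.8% GC, are in the highest. Odc1 and Oaz2, at 52.4 and 53.2% GC, lie in bin 4, where the median deviation was 0.04 in replicate 1 and -0.04 in replicate 2. Both went the other way, Odc1 with -0.09 in replicate 1 and 0.10 in replicate 2, and Oaz2 with -0.25 and 0.20. Smox, at 54.5% GC in the same bin, had the signs of the bin, with 0.05 and -0.13. Azin1, Amd1, Sms, Oaz1 and Srm also had the signs of their bins in replicates 1 and 2. So did Sat1 in bin 2, with -0.12 and 0.14 against medians of -0.03 and 0.04. Paox, in bin 3, had 0.05 and 0.06 against medians of 0.000274 and 0.0103. The part of base composition in the members' library order was not tested.

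**Figure D3:**
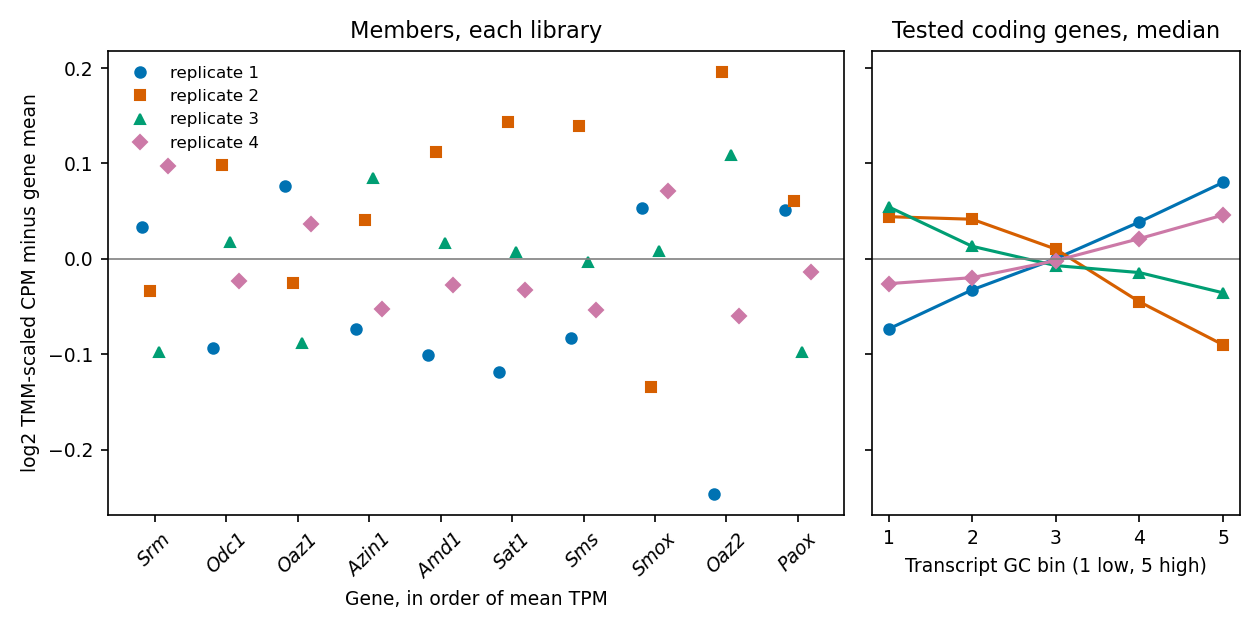
Left, log2 TMM-scaled CPM of each gene in each library minus the gene's mean over the 4 libraries; right, the median of the same deviation over tested protein-coding genes in 5 bins of transcript GC, on the same axis. Replicate 1 lies lowest for 6 of 10 genes, with Oaz2 at -0.25, and replicates 1 and 2 have opposite slopes with GC.

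Oaz2 had the widest range of the members, with a fold of 1.36 between its highest and lowest library (10.3 in replicate 2 and 7.59 in replicate 1, TMM-scaled CPM), and its dispersion was not called (edgeR, adjusted p = 0.994). Among the 11053 other tested protein-coding genes, the 3 whose centred log2 values over the 4 libraries lay nearest to it were Cd84, a SLAM family receptor, Gmcl1 and Rnf141. Their root mean square distances were 0.00517, 0.0149 and 0.0152 on the log2 scale, against a median of 0.196 over all genes searched. With 4 points per gene, many of 11053 genes can lie close to any pattern.

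Odc1 and Amd1, the decarboxylases of the pathway, kept the steadiest ratio. Odc1 over Amd1 was 11.5, 11.3, 11.4 and 11.5 in replicates 1 to 4, and the SD of its log2 was 0.00901, the smallest of the 45 pairs that the 10 genes form and below the 0.0210 that counting error alone gives on average. Amd1 over Sat1 came next at 0.0220, the median pair had 0.126, and the widest was Smox over Oaz2 at 0.274. Of the 45 pairs, 4 fell below their counting error, and the pair was singled out after these values were seen. Both genes are lowest in replicate 1 and highest in replicate 2.

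As the ratio of these decarboxylase genes varied least, their promoters are shown, from RefSeq for GRCm38.p6, 250 bases before to 50 after the start, 5′ to 3′ on the gene's strand. Amd1 lies at chr10:40302139-40302438 on the minus strand and Odc1 at chr12:17544623-17544922 on the plus strand, and capitals mark every CACGTG, the core of an E-box, or TATAAN, found on either strand.
Amd1: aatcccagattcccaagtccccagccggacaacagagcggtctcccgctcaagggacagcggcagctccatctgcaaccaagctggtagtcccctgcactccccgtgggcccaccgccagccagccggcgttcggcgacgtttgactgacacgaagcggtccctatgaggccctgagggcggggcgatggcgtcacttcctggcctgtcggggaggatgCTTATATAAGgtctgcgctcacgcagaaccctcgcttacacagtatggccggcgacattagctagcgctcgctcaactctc
Odc1: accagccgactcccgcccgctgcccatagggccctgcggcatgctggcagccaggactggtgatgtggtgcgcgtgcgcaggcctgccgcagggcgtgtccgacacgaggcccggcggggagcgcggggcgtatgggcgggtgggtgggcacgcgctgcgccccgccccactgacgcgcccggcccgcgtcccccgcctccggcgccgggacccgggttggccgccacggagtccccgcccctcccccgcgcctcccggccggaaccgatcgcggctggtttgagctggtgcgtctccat
The capitals in Amd1 are 2 overlapping matches to TATAAN, a form of the TATA box, 1 on each strand, 31 and 27 bases before the start. The Odc1 window held neither motif, which says only that these letters are not in it. The table matched 8 of the 10 members, with Srm and Azin1 not among them. TATAAN was in the windows of 2 of the 8 genes, Amd1 and Oaz1 (24.8% of all 32851 windows of the same length), CACGTG in 1, Sms (7.15%), and GGGCGG, a GC box core searched on both strands, in 7 (35.7%), all but Oaz1. These matches are descriptions of sequence, and no binding was measured.

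Genes that feed or use the pathway were taken from 6 lists with 53 genes. Of these, 35 had a mean of 1 TPM or more, 29 had 10 or more and 9 had 0 fragments in all 4 libraries. None of the 36 tested was called variable by edgeR or by DESeq2. Over all 12396 tested genes edgeR called 58 (0.468%) and DESeq2 69, so a count of 0 among 36 does not set the lists apart. The smallest unadjusted p (edgeR) was 0.0382, for Dohh, with an adjusted p of 0.912. It was the only one under 0.05 before adjustment, against 5.33% of all tested genes.

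On the supply side, 9 of 13 genes of ornithine and arginine metabolism were at 1 TPM or more. Oat, which interconverts ornithine and glutamate semialdehyde, had 236 ± 25.9 TPM, and Aldh18a1, which makes that semialdehyde from glutamate, had 198 ± 12.7 TPM (SD, n = 4). Ass1, which makes argininosuccinate, had 163 ± 9.55 TPM (SD, n = 4), with replicate 3 apart from the others at 176.8 TPM. On TMM-scaled CPM replicate 3 did not stand apart, with Ass1 at 121, 112, 123 and 115 in replicates 1 to 4. The arginases, which release ornithine from arginine, were all but undetected: Arg1 had 0 fragments in all 4 libraries and Arg2 had 7 fragments in replicate 1 and 0 in the other 3, both named after their values were seen. Agmat, for the agmatine route to putrescine, had 0 fragments, which allows up to 3 fragments or 0.0322 to 0.0777 CPM.

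For the aminopropyl donor, 10 of 12 genes of S-adenosylmethionine supply and methylthioadenosine salvage were at 1 TPM or more, each of those at 10 or more. Mat2a, the S-adenosylmethionine synthetase of most tissues, had 378 ± 25.3 TPM, Ahcy, which clears S-adenosylhomocysteine, 249.9 ± 8.07 TPM and Got1, a transaminase, 186 ± 10.2 TPM (SD, n = 4). The liver form Mat1a had 0 fragments.

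Downstream, all 4 hypusine genes were at 10 TPM or more. Eif5a, whose protein carries hypusine, had 3212 ± 150 TPM, above every member of the polyamine group in each library. The enzymes that build hypusine from spermidine, Dhps and Dohh, had 84.4 ± 5.45 and 102 ± 7.05 TPM (SD, n = 4). Of 11 transport genes 6 were at 1 TPM or more, led by Slc3a2, a subunit of amino acid exchangers, with 187 to 213 TPM, Atp13a3, a P5B ATPase linked to polyamine uptake, with 126 ± 14.0 TPM and Slc7a1, a cationic amino acid transporter, with 111 ± 6.29 TPM (SD, n = 4). Slc7a2 had 0 fragments.

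Most paralogs of the members had few or no fragments. Of 8 paralogs and minor enzymes only Aldh9a1 (126 ± 3.22 TPM), an aldehyde dehydrogenase, and Kdm1a (106 ± 6.06 TPM), a histone demethylase of the same amine oxidase family as Smox and Paox, were at 1 TPM or more. Amd2 had 0.675 ± 0.203 TPM and Satl1 0 fragments (SD, n = 4). Azin2, with 3 to 19 fragments per library, and Oaz3 and Sat2, with 0, were named after their values were seen. In the MYC network 4 of 5 genes were at 1 TPM or more: Myc had 497 ± 13.4 TPM, its partner Max 119 ± 9.20 TPM and the repressor Mnt 29.8 ± 1.83 TPM, while Mycn had 0.0870 ± 0.0625 TPM (SD, n = 4). Mnt was lowest in replicate 2, at 27.1 TPM against 30.5 to 31.0 TPM in the others.

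**Figure D4:**
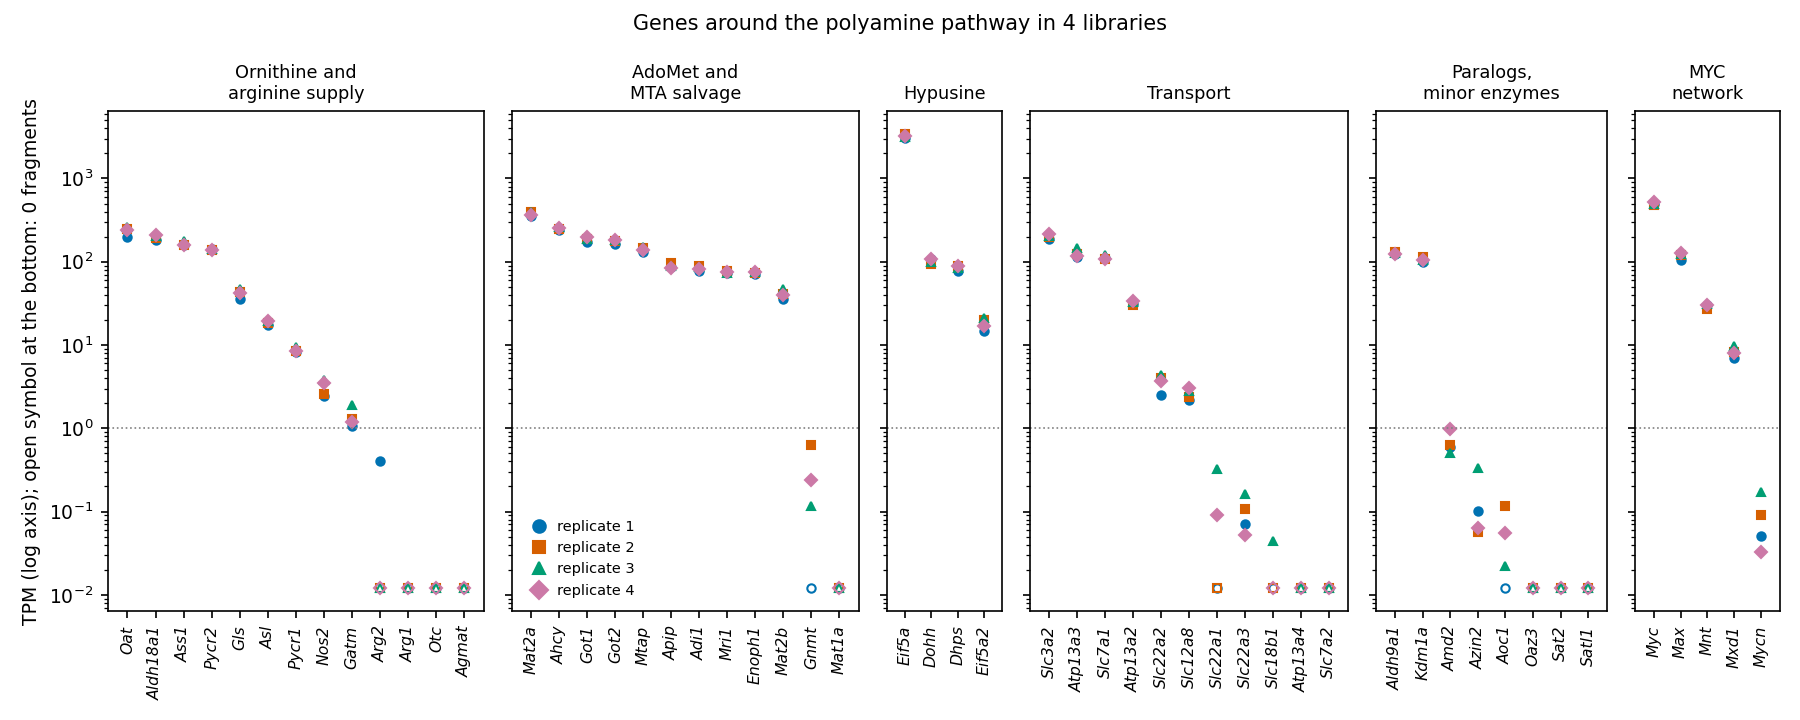
TPM on a log axis for the 53 genes of 6 lists around the pathway, in order of mean TPM within each list, with 1 symbol per library; open symbols at the bottom are libraries with 0 fragments, and the dotted line is 1 TPM. Eif5a stands above all others near 3212 TPM, while Arg1, Oaz3 and Sat2 lie at 0 in all 4 libraries.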

How the data were processed

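The authors used featureCounts 1.4.6-p4 to count fragments over genes, per the file headers: both ends mapped, exons grouped by gene, strand setting 2, GENCODE mouse release 13, mm10 per the labels. The deposited values are raw counts with an exon union length in bp. No option to count fragments that map to several places is in the command lines. No aligner is named in the sources used here.

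TPM, FPKM and CPM were computed from counts and lengths. Names came from GENCODE release 21, by gene ID (50376 of 50600 matched). edgeR 4.0.16 (filterByExpr, TMM, intercept-only quasi-likelihood fit, robust prior, upper F tail, Benjamini-Hochberg over 12396 genes, threshold 0.05) tested dispersion, checked on simulated data, with DESeq2 1.42.0 as an alternative. Pairs of genes were compared within libraries by exact two-sided sign-flip tests, with a pseudocount of 1 for neighbours in the order. Python 3.11.15 and R 4.3.3 were used.

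The 10 genes and the lists were chosen with earlier results of these data known. Genes named are the 10, the 3 highest of each list and its lowest if under 1 TPM, any list gene called variable, the 3 genes nearest to the member with the widest range, cell type markers, Xist, Y-linked genes and Gm42418. Library totals were 38590127 to 93035969 fragments; a count of 0 allows up to 3, and this limit covers counting error only. Alternatives were FPKM, other denominators and scalings, no length division, other pseudocounts, filters and priors, and leaving out each replicate; transcript length, added copies and unshared windows were added after seeing the data. TPM in place of TMM for the library order was also added then.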

Additional observations from a re-analysis of the deposited data

Results flagged for a closer look

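Each member, each named gene of the lists around them that had any fragments and each of the 8 ratios was checked for a library far from the other 3, 37 checks in all with 2 passing Dixon's 95% critical value. Chance gives about 1 in 20. Ass1, which makes argininosuccinate, had 176.8 TPM in replicate 3, against 156.7 to 159.4 TPM in the other libraries, a gap of 0.866 of the whole range. Mnt, a repressor in the MYC network, had 27.1 TPM in replicate 2, against 30.5 to 31.0 TPM in the others, a gap of 0.873 of the range. On TMM-scaled CPM the widest gap at either end was 0.235 of the range for Ass1 and 0.552 for Mnt, both under the critical value. No member of the polyamine group and none of the 8 ratios passed the value.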

How the results depend on the processing

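The median member level, 81.9 TPM, was 24.5 as FPKM and as TMM-scaled FPKM, 95.5 with the longest coding transcript as length and 129 with division by unshared windows. Without division by length, the order of neighbours turned for Srm minus Odc1 (-0.58), Oaz1 minus Azin1 (-0.13), Sat1 minus Sms (-0.59) and Oaz2 minus Paox (-0.48), all log2, and log2 Azin1 over Oaz1 became 0.13. Amd1 minus Sat1 (-0.45) and Sms minus Smox (-0.0561) turned with transcript length, Srm minus Odc1 (-0.18) and Azin1 minus Amd1 (-1.21) with unshared windows, and Sms minus Smox without replicate 2 (-0.0794; -0.0794 to 0.0542 over the 4 omissions). The length and window settings differ by construction in what a count is divided by; the cause of the change without replicate 2 was not tested. The other 71 values of the 8 ratios kept the sign of their mean, but Sat1 over Smox without length division (log2 0.03, Sat1 higher in 2 of 4 libraries, exact p = 0.875, n = 4) lost the shared direction.

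The count of variable genes was 110 with no filter (21459 genes tested), 36 with a non-robust prior and 37 to 69 with 1 replicate left out, the lowest without replicate 1, against 58; it was 59 to 61 with other scalings and 69 by DESeq2. No member was called under any of the 9 settings. The list counts were within 1.5 times under each alternative run. Oaz2, with 288 to 800 fragments, has the widest counting error of the 10. No comparison between groups was possible because the libraries form 1 group. The sign-flip tests paired genes within a library.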
